A study of Mus musculus with 9 samples.

Results

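The genes described here are the 10 that encode the transforming growth factor β (TGF-β) ligands Tgfb1, Tgfb2 and Tgfb3, the receptors Tgfbr1, Tgfbr2 and Tgfbr3, and the latent TGF-β binding proteins Ltbp1, Ltbp2, Ltbp3 and Ltbp4. They were chosen by gene symbol, with earlier results of these data known, and all 10 were found among the 24421 symbols of the data set. The series holds 9 tumor libraries, 3 each from the groups S7HP+Snail, S7HP and LHP, taken from the livers of 11-week-old C57BL/6 mice. The file headers tie S7HP to a Smad7 construct, S7HP+Snail to Smad7 together with Snail, and LHP to Luc, the luciferase control. The labels do not spell out HP. In the study as known from its publication, HP stands for an activated HRAS and a short hairpin against p53, delivered to the liver by hydrodynamic injection of transposon vectors, so all 3 groups share this driver pair and LHP is not normal liver. The series asks how a TGF-β, Smad and Snail axis bears on liver tumors. No label ties a tumor to an animal, and the p-values therefore reflect only the variation among these tumors, which may be technical in part.

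TGF-β is secreted in a latent form, in which the mature dimer stays bound to its own propeptide. The propeptide is tethered by latent TGF-β binding proteins to fibrillin-containing matrix until integrins or proteases release the ligand. Free ligand binds the type II receptor Tgfbr2, which recruits and phosphorylates the type I receptor kinase Tgfbr1, and Tgfbr1 phosphorylates Smad2 and Smad3. Smad7 is the inhibitory Smad that binds the active type I receptor and blocks this step. In liver, TGF-β restrains hepatocyte growth and drives matrix production by stellate cells, and in carcinoma cells it can induce Snail and an epithelial to mesenchymal transition.

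Libraries were QuantSeq 3′ libraries from 500 ng of total RNA, in which each transcript gives about 1 read near its polyadenylated end. Values are log2 of a quantile-normalized count plus 1, so the read total of each library is not preserved and each file sums to between 19910396 and 19911234 normalized counts. Within-group correlations across genes were 0.864 to 0.9 in S7HP+Snail, 0.923 to 0.936 in S7HP and 0.939 to 0.945 in LHP. On the second principal component, tumor 14 of S7HP+Snail lay away from the rest, at 118.1 against 25.9 to 31.3 for the other S7HP+Snail tumors. The log2 value of Smad7 was 7.36 ± 0.62 in S7HP+Snail, 6.52 ± 0.27 in S7HP and 10.07 ± 0.52 in LHP tumors, and that of Snai1, the gene for Snail, was 8.10 ± 0.69, 6.48 ± 0.39 and 10.69 ± 0.66 in the same order of groups (SD, n = 3 each). Tags at a 3′ end see a construct only where it includes that end of the mouse gene. Whether these constructs do is not stated, and neither gene therefore checks the labels.

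S7HP tumors had lower levels of Tgfb3 and of 3 of the 4 latency proteins than LHP tumors. Of the 9 members that passed the filter on low values, 4 fell in S7HP (Tgfb3, Ltbp1, Ltbp3 and Ltbp4), 0 rose and 5 were not called (limma, Benjamini-Hochberg adjusted p under 0.05 over all genes). Over all 14215 genes tested, 9.54% were called lower and 9.47% higher in S7HP, 19% in all. At an unadjusted p under 0.05, 6 members were lower and 1 was higher, beside 34.4% of all genes in either direction. The median difference of the 9 tested members was -1.80 on the log2 scale, and -1.75 over all 10, against 0.02 over all genes tested. S7HP and LHP tumors did not overlap for 7 of the 9 members, of which 6 were lower and 1 higher in S7HP, where 21.3% of all genes were lower and 20.9% higher without overlap, 42.1% in all. The filter can favour genes that are high in 1 group, so these counts are a description. The count of 4 fell to 1 without S7HP tumor 11 or LHP tumor 3 and to 2 without LHP tumor 2 or 6, and it was 5 without S7HP+Snail tumor 14 and 6 without S7HP+Snail tumor 13 or with only the 6 S7HP and LHP libraries in the fit. In bulk tumor RNA, fewer cells of a type and less RNA per cell cannot be told apart. Stellate cell and fibroblast markers, whose cells produce matrix, summed to between 6390 and 9901 normalized counts in S7HP and between 38554 and 56333 in LHP tumors, and their part in these differences was not tested.

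With Snail added to Smad7, 0 of the 9 tested members were called against S7HP (limma, Benjamini-Hochberg), while 1.01% of all genes were called higher and 1.29% lower, 2.3% in all. At an unadjusted p under 0.05, 3 members were higher (Tgfb2, Tgfbr3 and Ltbp4) and 0 lower, beside 17.8% of all genes in either direction. The groups did not overlap for 4 members, all higher in S7HP+Snail (Tgfb2, Tgfb3, Tgfbr3 and Ltbp4), where 9.53% of all genes were higher and 11% lower without overlap, 20.5% in all. The median difference was 0.68 over the 9 tested members and -0.02 over all genes tested. Against LHP, S7HP+Snail tumors had 1 member called, Tgfbr2, which rose, and 0 that fell, beside 3.35% of all genes called higher and 3.87% lower, 7.22% in all. At an unadjusted p under 0.05, 4 members were lower (Tgfbr1, Ltbp1, Ltbp2 and Ltbp3) and 2 were higher (Tgfbr2 and Tgfbr3), beside 25.1% of all genes in either direction. The median difference was -0.81 over the 9 tested members and 0 over all genes tested. S7HP+Snail and LHP did not overlap for 4 of the 9 tested members, with Tgfbr2 and Tgfbr3 higher and Tgfbr1 and Ltbp1 lower in S7HP+Snail, where 14.7% of all genes were higher and 15.8% lower without overlap, 30.5% in all. The count of calls was 2 without S7HP+Snail tumor 14, with Tgfbr2 higher and Tgfb3 lower, and 0 without any 1 LHP tumor. Without S7HP+Snail tumor 13 or 15 the call was instead Ltbp2 or Ltbp1, which fell. Each group enters 2 of the 3 comparisons, so their values are not independent of each other.

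**Figure D1:**
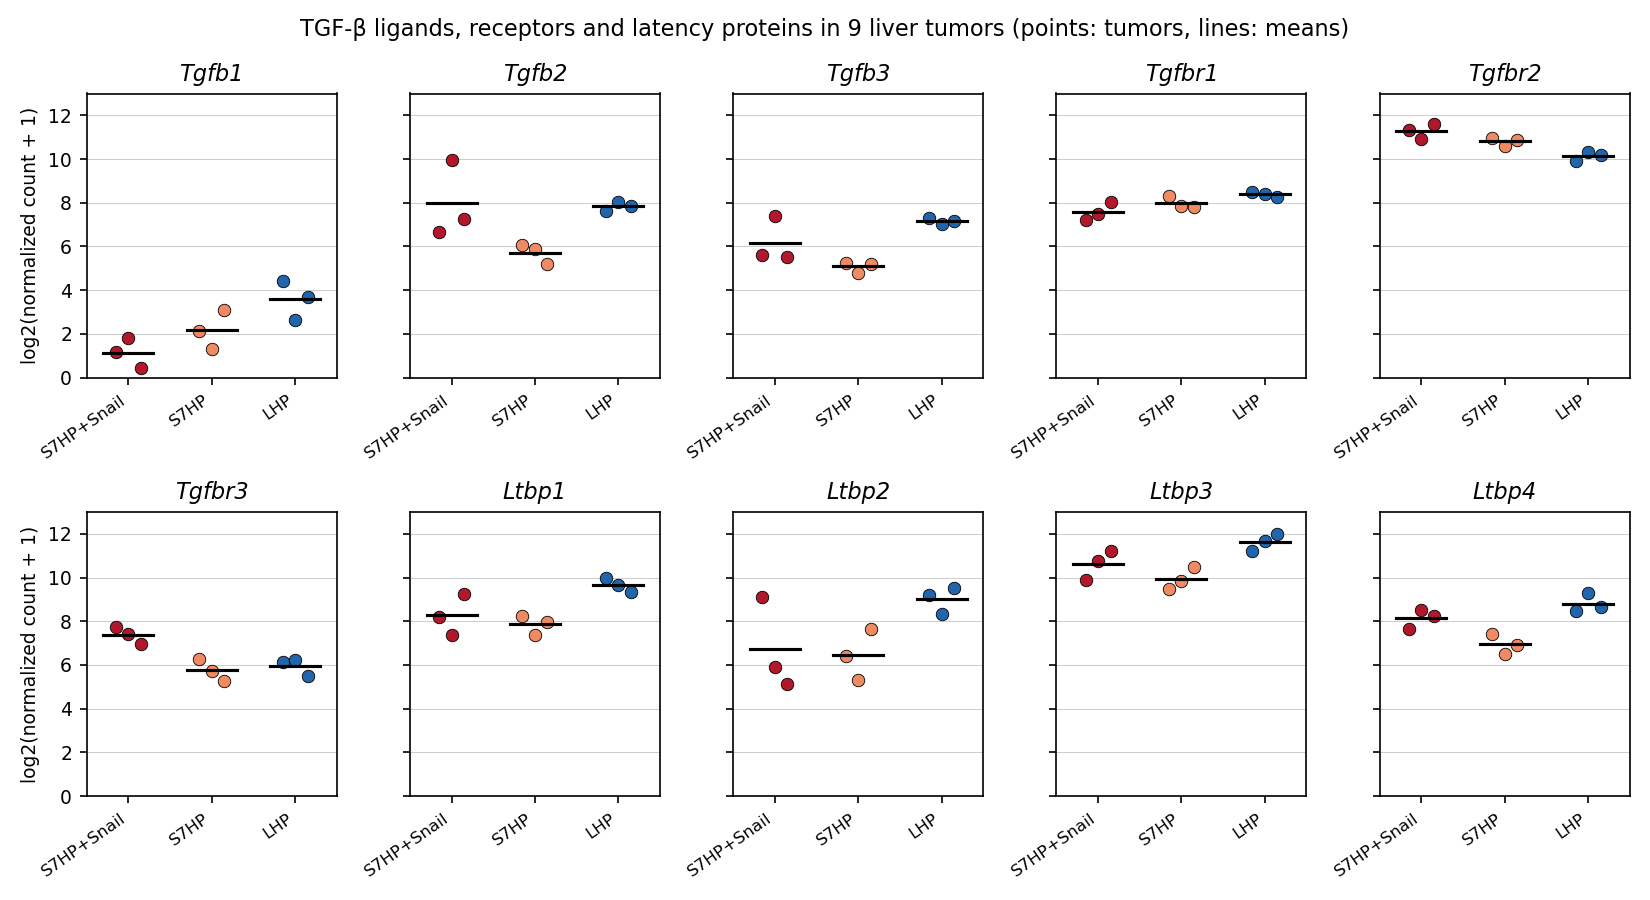
Each panel plots 1 gene, with the log2 value (quantile-normalized count plus 1) of each tumor as a point and the group mean as a line, for S7HP+Snail, S7HP and LHP from left to right. S7HP tumors lie below LHP tumors without overlap for Tgfb2, Tgfb3 and all 4 Ltbp genes, and Tgfbr2 has the opposite order.

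Among the ligands, Tgfb3 gave the call. Tgfb3 (GRCm38 chromosome 12, 86056745 to 86079041, minus strand) encodes the ligand known for its part in palate closure. Its log2 values were 5.61, 7.41 and 5.51 in S7HP+Snail tumors 13, 14 and 15, 5.26, 4.79 and 5.21 in S7HP tumors 9, 11 and 12, and 7.31, 7.02 and 7.18 in LHP tumors 2, 3 and 6. All 3 S7HP tumors were below every other tumor, and S7HP+Snail tumor 14 was alone in its group at the level of LHP. The SD of single biliary markers over the S7HP+Snail tumors ran from 0.79 (Sox9) to 4.41 (Krt19) on the log2 scale. Biliary markers in tumor 14 had a mean log2 value of 7.61, against 12.42 and 11.73 in tumors 13 and 15. Their sum was 26897 normalized counts, against 110986 and 332403. T and NK cell markers summed to 345 normalized counts, against 38 and 24, and hepatocyte markers to 193042, against 104314 and 93022. Endothelial markers summed to 9727, against 7066 and 7408, and macrophage markers to 9478, against 5798 and 4132. Stellate cell and fibroblast markers, at 13299, and platelet markers, at 1395, lay between the sums of tumors 13 and 15. The part of these cell types in the values of tumor 14 was not tested. In S7HP, Tgfb3 fell by 2.08 ± 0.51 (SE), a mean 4.24-fold lower than in LHP on the log2(count + 1) scale (limma, Benjamini-Hochberg adjusted p = 0.0203). The call was lost without S7HP tumor 11 or any 1 LHP tumor, where the adjusted p reached 0.0663 (limma, Benjamini-Hochberg). Against LHP, the S7HP+Snail difference was -0.99 ± 0.51 (SE) with all tumors (limma, Benjamini-Hochberg adjusted p = 0.258). Without tumor 14 it was -1.61 and passed the test (limma, Benjamini-Hochberg adjusted p = 0.0471).

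Tgfb2 had the widest spread of the ligands with Snail. The gene (GRCm38 chromosome 1, 186622792 to 186705989, minus strand) encodes the ligand that depends on betaglycan to reach Tgfbr2. Log2 values of Tgfb2 were 6.68, 9.97 and 7.27 in S7HP+Snail tumors 13, 14 and 15, 6.09, 5.90 and 5.18 in S7HP tumors 9, 11 and 12, and 7.63, 8.05 and 7.85 in LHP tumors 2, 3 and 6. S7HP tumors were the 3 lowest, and tumor 14 was the highest of all 9. S7HP differed from LHP by -2.12 ± 0.72 (SE), which did not pass with all libraries in the fit (limma, Benjamini-Hochberg adjusted p = 0.0677). It passed without S7HP+Snail tumor 13 or 14, or when the S7HP+Snail tumors were left out of the fit, with adjusted p down to 0.00416 (limma, Benjamini-Hochberg). S7HP+Snail was above S7HP by 2.25 ± 0.72 (SE), in 3 of 3 tumors, without passing (limma, Benjamini-Hochberg adjusted p = 0.141). S7HP+Snail and LHP differed by 0.13, with a 95% interval of -1.49 to 1.75.

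Tgfb1 was near the lower limit of detection. The gene (GRCm38 chromosome 7, 25687002 to 25705077, plus strand) encodes the ligand usually most abundant in liver disease. Log2 values of Tgfb1 were 1.15, 1.83 and 0.42 in S7HP+Snail tumors 13, 14 and 15, 2.12, 1.29 and 3.10 in S7HP tumors 9, 11 and 12, and 4.42, 2.64 and 3.68 in LHP tumors 2, 3 and 6. S7HP+Snail tumors did not overlap LHP tumors, and S7HP tumors overlapped both other groups. In unlogged terms these values ran from 0.333 normalized counts in S7HP+Snail tumor 15 to 20.3 in LHP tumor 2. In 4 of the 9 libraries, S7HP+Snail tumors 13 and 15 and S7HP tumors 9 and 11, the value was among the 3 lowest above 0. Tgfb1 did not reach the filter and was not tested with the other genes. In a fit of 19417 genes without the filter its differences were -1.41 ± 0.75 (SE) for S7HP and -2.44 ± 0.75 (SE) for S7HP+Snail against LHP, neither called (limma, Benjamini-Hochberg adjusted p = 0.255 and 0.1). A value at a 3′ end measures only the transcript ends that the authors' annotation, which the sources used here do not give, assigned to the gene.

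Among the receptors, Tgfbr2 gave the call, and it rose. Tgfbr2 (GRCm38 chromosome 9, 116084293 to 116175360, minus strand) encodes the type II receptor that binds ligand. Its log2 values were 11.34, 10.94 and 11.59 in S7HP+Snail tumors 13, 14 and 15, 10.96, 10.62 and 10.89 in S7HP tumors 9, 11 and 12, and 9.90, 10.34 and 10.18 in LHP tumors 2, 3 and 6. Every S7HP+Snail and S7HP tumor was above every LHP tumor. Tgfbr2 rose in S7HP+Snail by 1.15 ± 0.23 (SE), a mean 2.22-fold higher than in LHP (limma, Benjamini-Hochberg adjusted p = 0.0219). The call was lost without S7HP+Snail tumor 13 or 15 or any 1 LHP tumor, where the adjusted p reached 0.0771 (limma, Benjamini-Hochberg). In S7HP against LHP the difference was 0.68 ± 0.23 (SE), without passing (limma, Benjamini-Hochberg adjusted p = 0.0679).

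Tgfbr3 (GRCm38 chromosome 5, 107106570 to 107289629, minus strand) encodes betaglycan, the co-receptor that presents ligand to Tgfbr2. Tgfbr3 had log2 values of 7.73, 7.44 and 6.96 in S7HP+Snail tumors 13, 14 and 15, 6.27, 5.74 and 5.25 in S7HP tumors 9, 11 and 12, and 6.15, 6.24 and 5.49 in LHP tumors 2, 3 and 6. S7HP+Snail tumors were the 3 highest, and S7HP and LHP tumors overlapped. S7HP+Snail exceeded S7HP by 1.62 ± 0.40 (SE) and LHP by 1.42 ± 0.40 (SE), and neither difference passed (limma, Benjamini-Hochberg adjusted p = 0.0766 and 0.0631). It passed under none of the 14 alternatives in either comparison, where adjusted p ran from 0.055 to 0.199 (limma, Benjamini-Hochberg).

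Tgfbr1 (GRCm38 chromosome 4, 47353222 to 47414931, plus strand) encodes the type I receptor kinase, the direct target of Smad7 protein. Tgfbr1 had log2 values of 7.23, 7.49 and 8.05 in S7HP+Snail tumors 13, 14 and 15, 8.32, 7.86 and 7.80 in S7HP tumors 9, 11 and 12, and 8.50, 8.41 and 8.27 in LHP tumors 2, 3 and 6. S7HP+Snail tumors lay below LHP tumors without overlap, by a difference of -0.81 with a 95% interval of -1.44 to -0.17, which did not pass (limma, Benjamini-Hochberg adjusted p = 0.118). S7HP tumors overlapped LHP tumors, at -0.40 with an interval of -1.04 to 0.24.

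**Figure D2:**
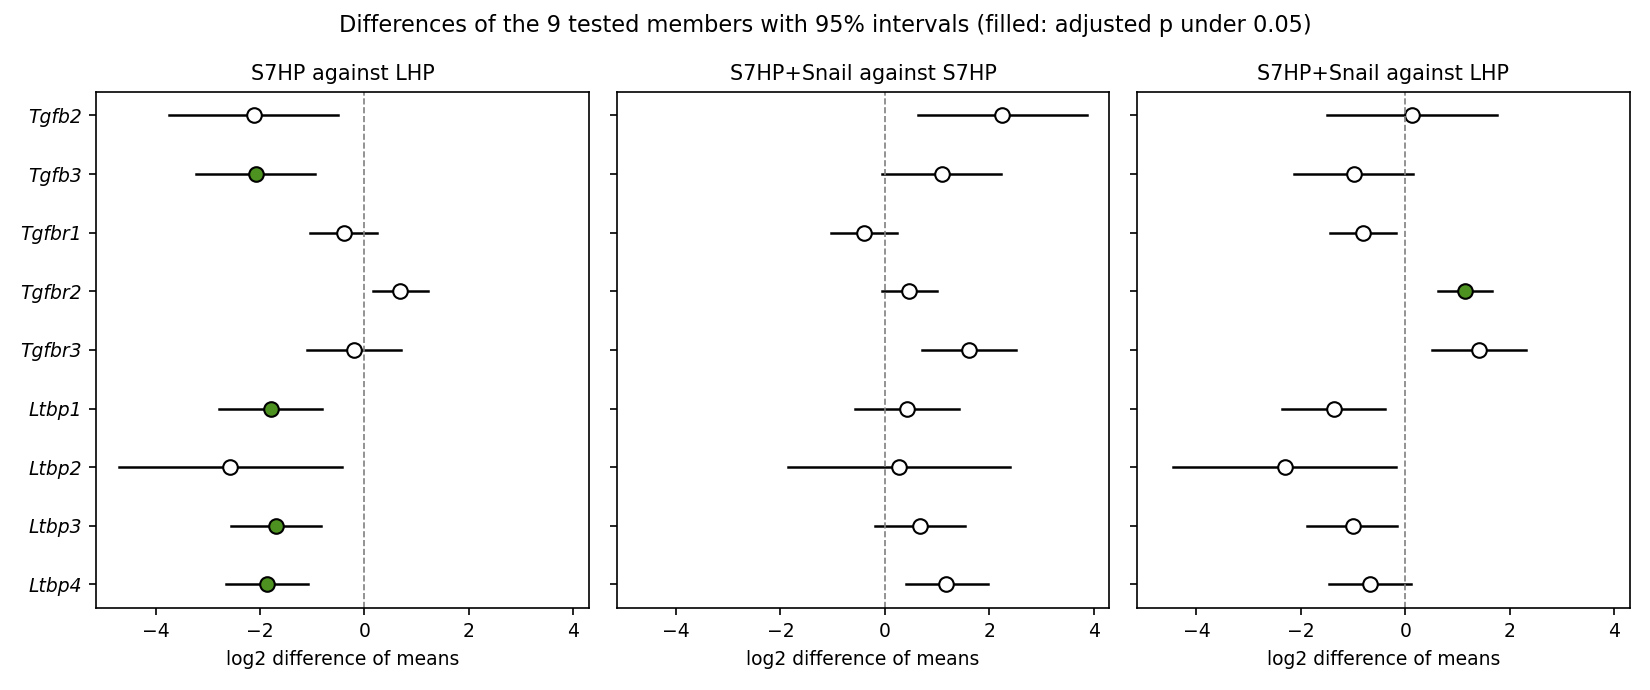
Points show the log2 difference of group means for the 9 tested members and bars the 95% interval from limma, in the comparisons S7HP against LHP, S7HP+Snail against S7HP and S7HP+Snail against LHP. Filled points passed an adjusted p of 0.05, which are Tgfb3, Ltbp1, Ltbp3 and Ltbp4 on the left, none in the middle and Tgfbr2 on the right.

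All 4 latent TGF-β binding proteins were lower in S7HP than in LHP tumors without overlap, and 3 of them passed the test. Ltbp4 (GRCm38 chromosome 7, 27305136 to 27337692, minus strand) encodes a matrix protein that takes part in elastic fiber assembly and binds latent TGF-β1. Its log2 values were 7.63, 8.51 and 8.24 in S7HP+Snail tumors 13, 14 and 15, 7.40, 6.51 and 6.93 in S7HP tumors 9, 11 and 12, and 8.48, 9.28 and 8.67 in LHP tumors 2, 3 and 6. S7HP tumors were the 3 lowest, and S7HP+Snail tumors lay above them and overlapped LHP. Ltbp4 fell by 1.86 ± 0.35 (SE) in S7HP, a mean 3.64-fold lower than in LHP (limma, Benjamini-Hochberg adjusted p = 0.00749). It was the only 1 of the 5 member calls, over the 3 comparisons, that passed under all 14 alternatives, where its adjusted p ran from 0.00585 to 0.0346 (limma, Benjamini-Hochberg). Against S7HP, S7HP+Snail was higher by 1.18 ± 0.35 (SE) in 3 of 3 tumors, without passing (limma, Benjamini-Hochberg adjusted p = 0.114).

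Ltbp1 (GRCm38 chromosome 17, 75005568 to 75392512, plus strand) encodes the founding family member, which anchors latent TGF-β in fibronectin and fibrillin matrix. Ltbp1 had log2 values of 8.21, 7.39 and 9.26 in S7HP+Snail tumors 13, 14 and 15, 8.25, 7.38 and 7.95 in S7HP tumors 9, 11 and 12, and 9.98, 9.65 and 9.35 in LHP tumors 2, 3 and 6. LHP tumors were the 3 highest, and the S7HP+Snail and S7HP tumors overlapped. Ltbp1 fell by 1.80 ± 0.44 (SE) in S7HP, a mean 3.48-fold lower than in LHP (limma, Benjamini-Hochberg adjusted p = 0.0214). The call was lost without S7HP tumor 11 or LHP tumor 2 or 3, where the adjusted p reached 0.0747 (limma, Benjamini-Hochberg). S7HP+Snail was at -1.37 ± 0.44 (SE) against LHP (limma, Benjamini-Hochberg adjusted p = 0.0937), and at -1.86 and past the test without tumor 15 (limma, Benjamini-Hochberg adjusted p = 0.0255).

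Ltbp2 differed most between tumors of 1 group. The gene (GRCm38 chromosome 12, 84783212 to 84876532, minus strand) encodes a microfibril protein that, unlike the rest of the family, does not bind latent TGF-β. Log2 values of Ltbp2 were 9.12, 5.91 and 5.14 in S7HP+Snail tumors 13, 14 and 15, 6.42, 5.31 and 7.64 in S7HP tumors 9, 11 and 12, and 9.22, 8.35 and 9.52 in LHP tumors 2, 3 and 6. S7HP+Snail tumor 13 reached the LHP range, while tumor 14 was within the S7HP range and tumor 15 was the lowest of all 9. S7HP differed from LHP by -2.57 ± 0.95 (SE), without passing (limma, Benjamini-Hochberg adjusted p = 0.0872), and S7HP+Snail by -2.30 ± 0.95 (SE), also without passing (limma, Benjamini-Hochberg adjusted p = 0.168). Without S7HP+Snail tumor 13 both passed, with S7HP at -2.57 and S7HP+Snail at -3.50 (limma, Benjamini-Hochberg adjusted p = 0.0175 and 0.0229). The S7HP difference also passed when all S7HP+Snail tumors were left out of the fit (limma, Benjamini-Hochberg adjusted p = 0.0127).

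Ltbp3 gave the fourth call in S7HP. The gene (GRCm38 chromosome 19, 5740904 to 5758532, plus strand) encodes a latent TGF-β carrier known for its part in bone and tooth development. Log2 values of Ltbp3 were 9.87, 10.75 and 11.21 in S7HP+Snail tumors 13, 14 and 15, 9.48, 9.82 and 10.49 in S7HP tumors 9, 11 and 12, and 11.21, 11.69 and 11.98 in LHP tumors 2, 3 and 6. Every S7HP tumor was below every LHP tumor, and S7HP+Snail tumors overlapped both S7HP and LHP. Ltbp3 fell by 1.70 ± 0.39 (SE) in S7HP, a mean 3.24-fold lower than in LHP (limma, Benjamini-Hochberg adjusted p = 0.0151). The call was lost without S7HP tumor 9 or 11 or LHP tumor 3 or 6, where the adjusted p reached 0.0633 (limma, Benjamini-Hochberg). The sources used here do not state that counting used strand, so the values of Ltbp3, like those of Tgfb3, may hold reads of the opposite strand. Without Ltbp3, 3 of the other 8 tested members fell in S7HP, beside 9.54% of all genes called lower.

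Tgfb3 ends inside a gene of the opposite strand, Ttll5, which encodes a tubulin glutamylase, with an overlap of 5149 bases. Tgfb3 minus Ttll5 was -2.43, -0.64 and -1.76 on the log2 scale in S7HP+Snail tumors 13, 14 and 15, between -3.23 and -1.84 in S7HP tumors and between -3.16 and -2.48 in LHP tumors. The log2 value of Ttll5 was 7.78 ± 0.44 in S7HP+Snail, 7.47 ± 0.48 in S7HP and 9.97 ± 0.32 in LHP tumors (SD, n = 3 each). Ttll5 fell in S7HP to a mean 5.67-fold lower than in LHP (limma, Benjamini-Hochberg adjusted p = 0.00163), the comparison in which Tgfb3 also fell. The values of Tgfb3 may hold reads of Ttll5, whose part in the difference of Tgfb3 was not tested. Ltbp2 overlaps the antisense transcript D030025P21Rik near its start, which was between 0 and 1.83 in S7HP+Snail, between 0 and 1.29 in S7HP and between 4.51 and 5.44 in LHP tumors.

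Where no call or interval was given above, the differences of S7HP+Snail were as follows, none of them called by limma. Against S7HP, Tgfb3 was at 1.09 (95% interval -0.05 to 2.23), Tgfbr1 at -0.40 (-1.04 to 0.24) and Tgfbr2 at 0.46 (-0.06 to 0.99). Among the latency proteins the differences from S7HP were 0.43 for Ltbp1 (-0.57 to 1.42), 0.27 for Ltbp2 (-1.86 to 2.40) and 0.68 for Ltbp3 (-0.18 to 1.54). Against LHP, Ltbp3 was at -1.01 (-1.88 to -0.15) and Ltbp4 at -0.68 (-1.47 to 0.11). For Tgfbr3, S7HP was at -0.20 (-1.11 to 0.70) against LHP.

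Promoter windows were available for 8 of the 10 members, with 12 start sites, from RefSeq on GRCm38.p6, each running from 250 bases before to 50 after a start. They were searched on both strands for the Smad CAGA box CAGACA, the Smad palindrome GTCTAGAC, the AP-1 site TGANTCA and the Snail E-box CAGGTG. The CAGA box was present in 4 of the 12 windows (Tgfb2, Ltbp3 and the inner starts of Tgfbr1 and Ltbp1), against 6913 of 32851 windows of the same length over all genes. The E-box was present in 3 windows (Ltbp2 and 2 starts of Ltbp4), against 20.2% of all windows, AP-1 in 1 window (Ltbp3) against 7.81%, and the palindrome in 0 against 0.213%. A match is a match of letters and not evidence of binding. The 3 windows below belong to Ltbp4, whose fall was kept in every alternative, to Ltbp3, where the AP-1 and CAGA letters share bases at the start site from position -6 to 5, and to Tgfbr2, the member that rose. Capitals mark the matches, with the E-box of Ltbp4 read on the other strand as CACCTG, and the window of Tgfbr2 has none. The windows are, in order, chr7:27337563-27337862 (minus strand), chr19:5740650-5740949 (plus strand) and chr9:116175314-116175613 (minus strand).
Ltbp4: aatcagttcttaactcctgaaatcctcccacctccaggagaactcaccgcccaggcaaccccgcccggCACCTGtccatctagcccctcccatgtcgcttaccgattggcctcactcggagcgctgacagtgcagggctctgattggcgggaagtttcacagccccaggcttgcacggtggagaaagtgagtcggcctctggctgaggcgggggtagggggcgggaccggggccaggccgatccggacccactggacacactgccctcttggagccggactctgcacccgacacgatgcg
Ltbp3: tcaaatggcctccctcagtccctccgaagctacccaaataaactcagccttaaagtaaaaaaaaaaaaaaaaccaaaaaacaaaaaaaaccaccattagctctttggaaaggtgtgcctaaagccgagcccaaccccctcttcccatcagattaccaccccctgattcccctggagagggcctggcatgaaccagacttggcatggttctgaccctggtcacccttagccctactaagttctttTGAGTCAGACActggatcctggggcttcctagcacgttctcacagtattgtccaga
Tgfbr2: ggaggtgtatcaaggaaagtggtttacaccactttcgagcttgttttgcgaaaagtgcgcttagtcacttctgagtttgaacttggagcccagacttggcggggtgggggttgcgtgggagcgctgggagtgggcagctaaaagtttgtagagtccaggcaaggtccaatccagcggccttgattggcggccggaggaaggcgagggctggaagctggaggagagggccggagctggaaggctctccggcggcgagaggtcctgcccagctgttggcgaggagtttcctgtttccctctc

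The rest of the pathway was described with 4 lists. Of 22 genes for activation and extracellular handling, 19 were tested, and 9 fell, 0 rose and 10 were not called in S7HP against LHP (limma, Benjamini-Hochberg), beside 9.54% of all genes called lower and 9.47% higher. The 5 with the smallest adjusted p were Plau, the plasminogen activator urokinase (-5.01 ± 0.69), Fbn1, the fibrillin that holds latent complexes (-2.92 ± 0.41), Lox, the collagen cross-linking oxidase (-3.24 ± 0.56), Mmp9, a matrix protease (-3.01 ± 0.60), and Thbs1, thrombospondin 1, which activates latent TGF-β (-2.29 ± 0.46), all as log2 differences ± SE. The list median was -1.15, against 0.02 over all genes tested. In S7HP+Snail against S7HP, 3 of the 19 rose and 0 fell, namely Plau (3.49 ± 0.69), Thbs1 (2.18 ± 0.46) and Mmp9 (2.79 ± 0.60), beside 1.01% of all genes called higher, and 1 rose without tumor 14. In S7HP+Snail against LHP, 5 fell and 0 rose, led by Lox (-2.89 ± 0.56) and Bgn, the proteoglycan biglycan (-2.03 ± 0.42), beside 3.87% of all genes called lower, and 3 fell without tumor 14. The genes Itgb6 and Itgb8, whose integrins release latent TGF-β, did not reach the filter. Itgb8 was listed at 0 in 3 of 3 S7HP+Snail tumors.

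In S7HP against LHP, where 9.54% of all genes were called lower, 4 of 8 co-receptors and decoys fell and 0 rose. They were Cd109, a membrane co-receptor that lowers TGF-β signaling (-4.73 ± 0.60, with an S7HP mean of 2.69 near the lowest values), the BMP type I receptor gene Acvr1 (-2.03 ± 0.30), the endothelial type I receptor gene Acvrl1 (-1.76 ± 0.50) and vasorin, Vasn, a TGF-β trap (-0.90 ± 0.28), as log2 differences ± SE (limma, Benjamini-Hochberg). Against S7HP, 0 of 8 were called in S7HP+Snail by limma, with a list median of 0.84, and 4 were higher and 0 lower at an unadjusted p under 0.05, beside 17.8% of all genes in either direction. In S7HP+Snail against LHP, where 3.87% of all genes were called lower and 3.35% higher, Acvr1 and Cd109 fell (-1.60 ± 0.30 and -2.56 ± 0.60), and Bambi, a pseudoreceptor for the TGF-β family, rose by 1.97 ± 0.41 (limma, Benjamini-Hochberg adjusted p = 0.0244). Bambi averaged 8.23 ± 0.77 in S7HP+Snail, 6.94 ± 0.43 in S7HP and 6.26 ± 0.19 in LHP tumors (SD, n = 3 each).

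Of 15 intracellular signaling genes, 14 were tested. In S7HP against LHP, where 9.54% of all genes were called lower, 4 of the 14 fell and 0 rose. They were the corepressors Skil (-2.48 ± 0.22) and Ski (-1.52 ± 0.27), the inhibitor Pmepa1 (-5.73 ± 0.51) and Smad7 itself (-3.55 ± 0.38), as log2 differences ± SE. In S7HP+Snail 0 of 14 were called against S7HP by limma, with 3 higher and 0 lower at an unadjusted p under 0.05 beside 17.8% of all genes, and 3 fell against LHP (Pmepa1, Skil and Smad7) beside 3.87% of all genes called lower. Without S7HP+Snail tumor 14, 1 of the 14 was called higher against S7HP. Of 12 target genes, which include Skil, Pmepa1, Smad7, Thbs1 and Ltbp2 from the other lists and the members, 9 fell and 0 rose in S7HP against LHP, beside 9.54% of all genes called lower, with a list median of -2.53. Snai1 fell by 4.22 ± 0.43 (SE) and Col1a1, the type I collagen gene, by 3.19 ± 0.34 (SE). Col1a1 is also counted among the stellate cell and fibroblast markers. In S7HP+Snail, 2 of 12 rose against S7HP, Tgfbi, a matrix adhesion protein (2.57 ± 0.31), and Thbs1, beside 1.01% of all genes called higher, and 4 were called without tumor 14, of which 3 were higher and 1 lower. Against LHP, 6 of 12 fell in S7HP+Snail and 0 rose, beside 3.87% of all genes called lower.

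**Figure D3:**
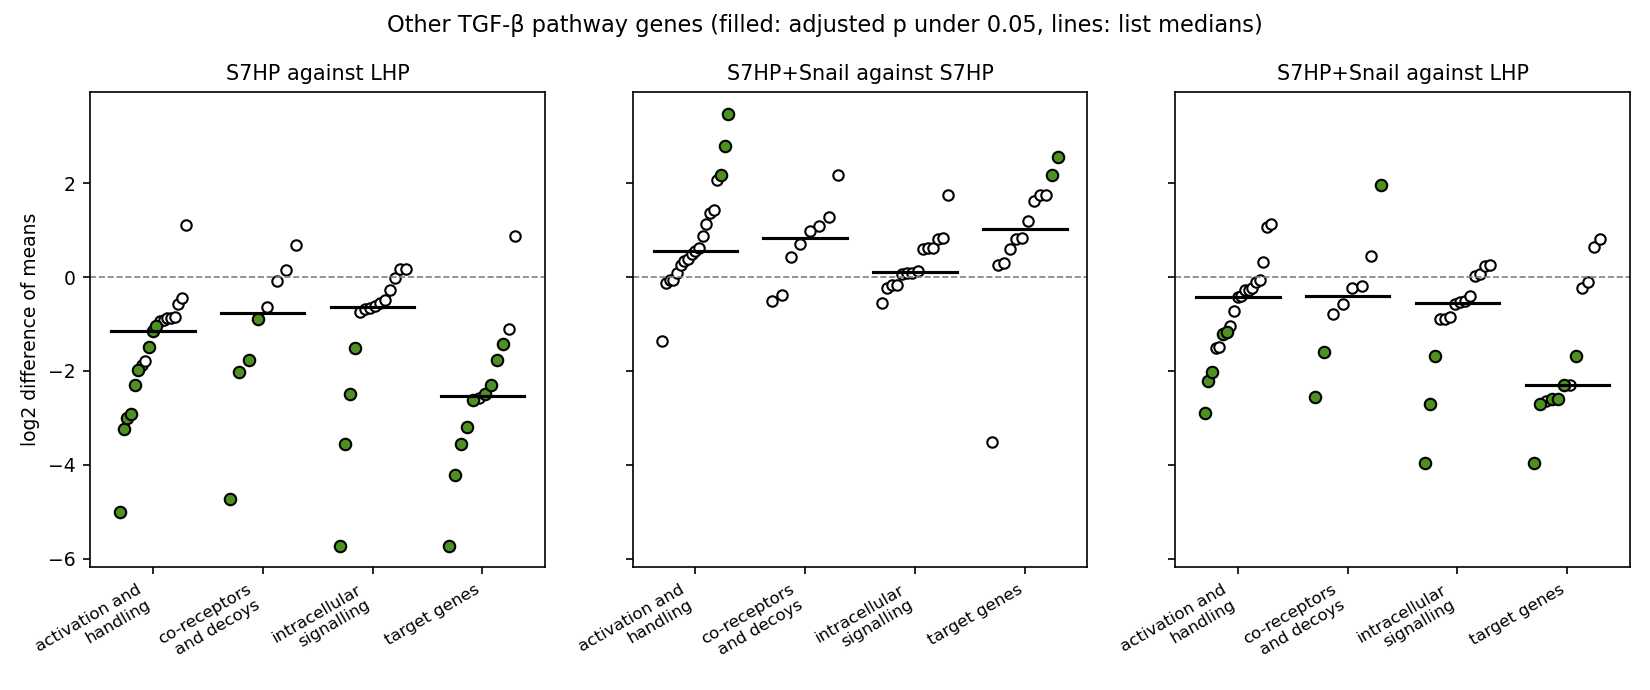
Each point is 1 tested gene of a pathway list, with its log2 difference of group means on the vertical axis, and lines mark list medians. Filled points passed an adjusted p of 0.05 in the fit over all genes, and in S7HP against LHP all filled points lie below 0.

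Markers of matrix-producing cells were lower in S7HP than in LHP tumors, the comparison in which 3 latency proteins fell. The 8 stellate cell and fibroblast markers summed to between 11770 and 14277 normalized counts in S7HP+Snail, 6390 and 9901 in S7HP and 38554 and 56333 in LHP tumors, and none was at 0. Of the 8, 5 fell and 0 rose in S7HP against LHP (limma, Benjamini-Hochberg), beside 9.54% of all genes called lower. Among those that fell were Col1a1, Acta2 (-3.02 ± 0.51) and Pdgfrb (-2.64 ± 0.46), as log2 differences ± SE. The other 3 were lower without a call, namely Rgs5 (-2 ± 0.86), Lrat (-1.47 ± 0.8) and Dcn (-0.84 ± 0.46). In S7HP+Snail against LHP 4 of the 8 fell, beside 3.87% of all genes called lower. The 4 latency proteins were lower there too, at -1.37 (Ltbp1), -2.30 (Ltbp2), -1.01 (Ltbp3) and -0.68 (Ltbp4), none of them called. The 7 hepatocyte markers summed to between 93022 and 193042 normalized counts in S7HP+Snail, 106259 and 366876 in S7HP and 29239 and 49873 in LHP tumors, with none at 0 in any tumor, and 4 of the 7 rose in S7HP against LHP (limma, Benjamini-Hochberg), beside 9.47% of all genes called higher. Endothelial markers summed to between 7066 and 9727 in S7HP+Snail, 3737 and 5918 in S7HP and 5136 and 5456 in LHP tumors, and macrophage markers to between 4132 and 9478, 3218 and 5386, and 6196 and 10212 in the same order of groups. Of the 7 markers in each of these last 2 lists, 0 were called in S7HP against LHP by limma, and 2 of each list were lower at an unadjusted p under 0.05, beside 34.4% of all genes in either direction. In S7HP+Snail against S7HP, 0 of 7 endothelial markers were called by limma and 4 were higher at an unadjusted p under 0.05, beside 17.8% of all genes. In S7HP+Snail against LHP, 1 of the 7 endothelial markers was called, beside 3.35% of all genes called higher. It was Egfl7, which rose by 0.96 ± 0.23 (SE; limma, Benjamini-Hochberg adjusted p = 0.0375). The other 6 were not called, with Tek lower at -0.29, and the list median was 0.31. Platelet markers, a known source of Tgfb1, summed to between 932 and 1505 in S7HP+Snail, 129 and 541 in S7HP and 769 and 1817 in LHP tumors, with Gp9 at 0 in 6 of the 9. In S7HP against LHP 1 of the 4 tested was called, Gp1bb (-3.69 ± 0.60), beside 9.54% of all genes called lower. Pf4 (-0.43) and Itga2b (-0.62) were lower and Ppbp (1.58) higher without a call. Between S7HP+Snail and S7HP, 2 of the 4 were higher with Snail at an unadjusted p under 0.05, beside 17.8% of all genes in either direction, with 0 called by limma. The part of these cell types in the differences of the members was not tested.

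The 3 members with the largest range of group means were Ltbp2, Tgfb1 and Tgfb2. For each, likeness of pattern was measured as the root mean square difference of centred log2 values over the 9 tumors, as a description. Nearest to Ltbp2 were C130026I21Rik, Tnip3 and Col15a1, at 0.52, 0.52 and 0.53, and Col15a1 averaged 8.09 in S7HP+Snail, 7.96 in S7HP and 10.84 in LHP. In the same order of groups, C130026I21Rik averaged 2.54, 2.25 and 4.42, and Tnip3 3.77, 3.42 and 5.87. The S7HP+Snail and S7HP means of both were thus below the filter value of 4. Closest to Tgfb2 were Prickle2, Antxr1 and Smad5, at 0.41, 0.45 and 0.48, with Smad5, a BMP-pathway Smad, at 12.89 in S7HP+Snail, 10.69 in S7HP and 12.12 in LHP. Those nearest to Tgfb1 were Acot7, Rnf152 and Axl, at 0.53, 0.58 and 0.61, and Tgfb1 itself was near the floor. The points share libraries and their normalization.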

How the data were processed

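The authors deposited 1 file per tumor, with 1 value per gene symbol. RNA was extracted with Trizol and made into QuantSeq libraries, per the labels' protocols, and Bowtie2, edgeR and the build mm10 are named without roles or versions, per the submitters' processing notes. How reads were counted, with which annotation and whether by strand, is not given in the sources used here. The authors' values are log2 of a quantile-normalized count plus 1, as the deposited values show: 9 times the unlogged count was whole for 100% of values, to within 0.001 or, where larger, 1e-06 of the value. Quantile normalization gives every library the same distribution, so depth is unknown, and the third lowest value above 0 differed between libraries, from 1.22 to 2.64.

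Genes at 4 or more on the log2 scale in 3 or more libraries were kept (14215). All 9 libraries were fitted in limma 3.58.1 (R 4.3.3; eBayes with trend and robust variances, 6 residual degrees of freedom), two-sided, with Benjamini-Hochberg adjustment over all genes and a threshold of 0.05. Intervals are limma's. Members and lists were chosen with earlier results of these data known, and no list was tested. The genes named are the members, Smad7, Snai1, up to 5 called genes per list and comparison, and the 3 genes nearest in pattern to each of 3 members. Coordinates are GENCODE M21 (GRCm38). Ccn2 is Ctgf in the files, and Ly6g was not used here. A result on withheld genes is not reported here. The procedure was tested on simulated data. Figures used matplotlib 3.10.9.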

Additional observations from a re-analysis of the deposited data

How the results depend on the processing

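Over 5 other settings and the omission of each of the 9 libraries in turn, 0 member calls reversed their direction. Of the 5 member calls, 1 (Ltbp4, S7HP against LHP) was kept throughout, and of the 22 member results without a call, 5 were called under at least 1 alternative. Leaving out 1 library gave 1386 to 3154 called genes for S7HP against LHP (2702 with all), with 1560 and 1738 without S7HP tumors 9 and 11 and 1743, 1405 and 1386 without LHP tumors 2, 3 and 6, and 1 to 6 called members (4 with all). For S7HP+Snail against S7HP it gave 62 to 445 genes (327 with all), with 124, 62 and 83 without S7HP tumors 9, 11 and 12 and 205 and 185 without LHP tumors 3 and 6, and 0 members throughout. For S7HP+Snail against LHP it gave 240 to 1045 genes (1026 with all), with 401, 240 and 282 without LHP tumors 2, 3 and 6, and 0 to 2 members (1 with all). With only the 6 libraries compared in the fit, the counts of genes were 3396, 119 and 681 in the same order, and the counts of members 6, 0 and 1. The causes were not tested. The median-ratio scaling moved the median over all genes by at most 0.026 on the log2 scale. Tgfb1 had a value in 1 alternative, the fit without a filter. Pathway list counts without S7HP+Snail tumor 14 were added after the data were seen. No paired analysis was possible because the tumor numbers are not shared between groups. Tests made for counts do not apply to these values. Quantile normalization leaves depth unknown, which limits the low values of Tgfb1 most.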
